A study of Rattus norvegicus with 6 samples.

Results

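The heat shock proteins and their DnaJ co-chaperones were examined as a gene group in HEI-OC1 cells, a cell line from the organ of Corti of the inner ear, in which AUF1 had been knocked down. AUF1 is the RNA-binding protein encoded by Hnrnpd. The members were the protein-coding rows of the count table whose symbols name heat shock factors, the HSP90, HSP70, HSP110, small HSP and HSP60 families, the chaperonin TRiC, DnaJ classes A to C, the BAG proteins, or the HSP90 co-chaperones Stip1, Ahsa1 and Ptges3. The endoplasmic reticulum chaperones Hspa5, Hsp90b1 and Dnajb9 were left out of the group. This gave 87 members among 18718 genes with a row, and the rule reads gene type and symbols only. The siHnrnpd group held 3 libraries of cells given an siRNA against Hnrnpd (genotype AUF1 knock down), and the control group held 3 libraries of cells given a control siRNA. All the cells were of this line and grew in serum-containing medium with streptomycin and penicillin, and the labels name no heat or other stress treatment and no duration of the siRNA treatment.

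Molecular chaperones bind proteins that are not yet folded or have lost their fold. HSP70 proteins hold such clients in cycles of ATP hydrolysis that DnaJ proteins start and BAG and HSP110 proteins reset, and clients may pass on to HSP90 or to TRiC, the ring-shaped chaperonin that folds actin and tubulin. When unfolded proteins build up, heat shock factor 1 binds heat shock elements in the promoters of many of these genes and raises their transcription, and in the inner ear this response is known for protecting hair cells from noise and ototoxic drugs.

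The heat shock element is built of GAA units in alternating orientation. Its 2-unit form was searched as GAANNTTC and TTCNNGAA, and its 3-unit form as GAANNTTCNNGAA and TTCNNGAANNTTC. Each 2-unit form is its own reverse complement and the 3-unit forms are each other's, so both strands were read, and a 3-unit match holds overlapping 2-unit matches. The window was the 250 bases before each gene's start in RefSeq, rat build GRCr8. Of the 87 members 70 matched a promoter, 1 of them through a synonym. The 2-unit letters stood in 17 of these promoters (24.3%), against 13.5% of all 33469 promoters and 12.7% of the 21851 protein-coding ones. The 3-unit letters stood in 3 member promoters (4.29%), against 0.663% of all promoters. Those 3 are shown first below, followed by that of Dnajc9, the member with the lowest p in the siRNA comparison, where neither form was found. Nor was either form found for Hspa1b (matched through Hspa1a), Hsp90ab1 or Ahsa1, which are counted below as heat-inducible genes. Sequences run 5′ to 3′ in lower case, with 2-unit matches in capitals.
Hsph1 (chr12:10427118-10427367, + strand): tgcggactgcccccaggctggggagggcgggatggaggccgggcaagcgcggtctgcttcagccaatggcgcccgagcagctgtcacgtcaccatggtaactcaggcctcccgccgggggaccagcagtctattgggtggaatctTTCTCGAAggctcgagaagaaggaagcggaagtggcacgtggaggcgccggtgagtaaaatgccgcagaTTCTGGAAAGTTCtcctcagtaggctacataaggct
Hspd1 (chr9:64084038-64084287, - strand): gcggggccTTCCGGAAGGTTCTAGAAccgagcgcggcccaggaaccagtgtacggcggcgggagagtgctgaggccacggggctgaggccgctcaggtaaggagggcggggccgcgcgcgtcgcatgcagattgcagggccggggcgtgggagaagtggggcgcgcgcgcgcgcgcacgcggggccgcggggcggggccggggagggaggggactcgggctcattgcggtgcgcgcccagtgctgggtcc
Hspa8 (chr8:50080264-50080513, + strand): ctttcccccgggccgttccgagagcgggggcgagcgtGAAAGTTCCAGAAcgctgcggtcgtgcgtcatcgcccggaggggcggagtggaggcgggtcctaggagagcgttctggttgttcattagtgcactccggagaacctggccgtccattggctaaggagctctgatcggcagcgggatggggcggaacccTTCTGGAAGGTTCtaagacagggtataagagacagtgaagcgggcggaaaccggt
Dnajc9 (chr15:3972779-3973028, + strand): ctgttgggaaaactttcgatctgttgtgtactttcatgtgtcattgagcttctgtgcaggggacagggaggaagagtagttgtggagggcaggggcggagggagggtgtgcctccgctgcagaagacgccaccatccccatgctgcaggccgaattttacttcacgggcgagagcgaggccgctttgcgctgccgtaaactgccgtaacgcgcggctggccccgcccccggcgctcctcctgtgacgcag
Hsph1 encodes the HSP110 chaperone that resets HSP70, Hspd1 the mitochondrial chaperonin HSP60, and Hspa8 the constitutive HSP70 known as HSC70. A match describes these letters in the rat reference and was not tested as a binding site.

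The libraries held 28984535 to 35842904 gene counts, of which the members took 1.18% to 1.25%. Hnrnpd (listed as Hnrpd) lay at 62.8% of its control level in the siHnrnpd libraries, with a log2 change of -0.67 (SE 0.082, edgeR adjusted p = 0.0426). The labels name rat as the organism, whereas HEI-OC1 is widely described as a mouse line, and which species the reads came from was not tested. Of 11 hair cell markers, 9 had a row. Myo6 had a mean of 3.88 FPKM and each of the other 8 had 0.562 FPKM or less, whereas the 9 mesenchymal markers ran from 0.040 FPKM in Postn and 0.068 FPKM in Dcn to 345 FPKM in Col1a1 and 1853 FPKM in Vim, with a median of 5.17 FPKM. Of 9 supporting cell and prosensory markers, 6 had a row, with a median of 2.11 FPKM and up to 34.1 FPKM in Cdkn1b. The 6 macrophage markers had a median of 0.0058 FPKM and reached 1.66 FPKM in Cd68. The summed level of the 9 mesenchymal markers was 6711 to 7192 CPM in control and 6818 to 8179 CPM in siHnrnpd, highest in siHnrnpd 3, and its part in the results was not tested. The library siHnrnpd 3 stood apart in interferon-stimulated genes. Their mean log2 CPM lay 1.97 below the control mean there, against 0.703 and 0.534 below it in siHnrnpd 1 and 2. The labels do not say whether replicates were separate cultures, so the spread behind each p-value is that of these libraries and may be technical only. RNA per cell and the share of cells expressing a gene cannot be told apart in bulk RNA.

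Levels of different genes were compared by FPKM, which scales counts by gene length and library size, as deposited by the authors. Of the 86 members with an FPKM value, 69 (80.2%) had a mean of at least 1 FPKM, against 54.8% of all 18628 genes with one. There were 52 members (60.5%) at 10 FPKM or more, against 29.1% of all genes, and 16 members (18.6%) at 100 FPKM or more, against 5.16%. The 9 TRiC genes made up 41.7% of the summed member FPKM, averaged over the 6 libraries. That sum holds the rows named Hspa8 and Hsp90aa1, at means of 1.62 and 4.05 FPKM. It leaves out the rows described as the same proteins, treated below, at 688 and 75.3 FPKM. The TRiC share would be smaller with them and was not recomputed. Tcp1, the alpha subunit of TRiC, had the highest level, 826 ± 51.6 FPKM in the controls and 822 ± 19.7 FPKM in the siHnrnpd libraries (SD, n = 3 each). Among the members Hsp90ab1, the constitutive cytosolic HSP90, followed at 450 ± 4.70 and 460.1 ± 9.12 FPKM (SD, n = 3 each). Hspb1, the small heat shock protein HSP27, had 342 ± 45.0 and 373 ± 36.8 FPKM (SD, n = 3 each). The ranges of these 3 genes over the 6 libraries separated Tcp1 from Hsp90ab1 and Hsp90ab1 from Hspb1. Hspb1 overlapped with Cct5, the next in order, while Cct5 lay above Cct2 in every library.

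**Figure D1:**
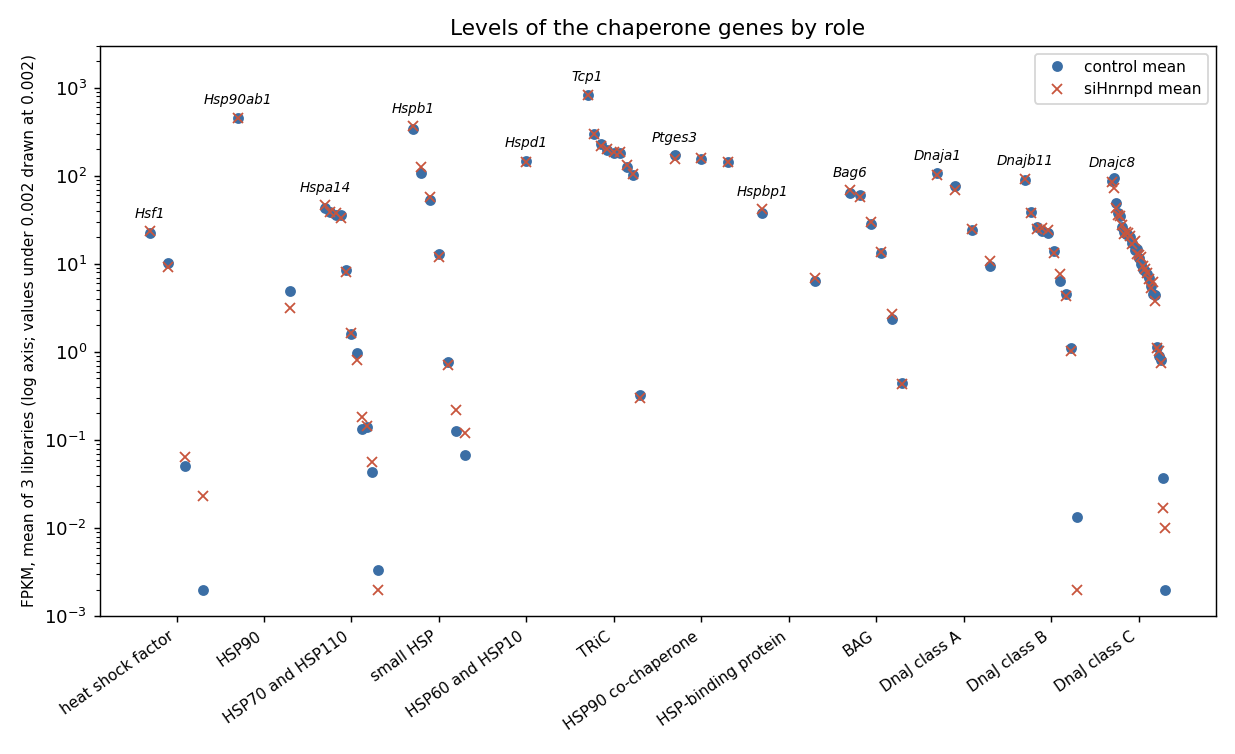
Mean FPKM of each member in the control (blue circles) and siHnrnpd (red crosses) groups, n = 3 libraries each, by role on a log axis; the highest member of each role is named. Circles and crosses of the abundant genes lie nearly on top of each other, and Tcp1 at 826 and 822 FPKM stands above the rest.

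The siRNA comparison asks which mRNAs change level when AUF1 is reduced. As a group the chaperones stayed near their control levels. A filter on low counts left 77 of the 87 members for testing, and edgeR's quasi-likelihood test with Benjamini-Hochberg adjustment over 12268 genes called 0 of them at an adjusted p under 0.05. The same rule called 10 of all genes tested, or 0.0815% (0.0245% higher and 0.0571% lower). Before adjustment, 8 members (10.4%) had a p under 0.05, against 11.0% of all genes tested. Of these, 5 were higher with the siRNA, where the background is 5.84%, and 3 were lower, where it is 5.20%. The 3 siHnrnpd libraries lay apart from the 3 controls in 13 members (16.9%), against 17.0% of all genes. They lay above the controls in 8 members (background 8.42%) and below them in 5 (background 8.57%). A log2 change above 0 was found in 40 members (51.9%), against 51.7% of all genes, and the median was 0.0088 over the members and 0.0054 over all genes tested. All of these shares were near the background.

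The precision of the group was enough to bound most changes. The 95% interval of the change lay within 1.5-fold in both directions for 67 of the 77 members, and within 2-fold for 74. The 3 whose interval reached past 2-fold were Hsp90aa1, Hspa1b and Hspa1l. The log2 change was under 0.2 in size in 66 members, or 85.7%, against 75.6% of all genes tested. The median SE was smaller over the members, 0.086 against 0.105 over all genes tested, and its part in this share was not tested. Among the 66 members with a mean of at least 5 CPM (counts scaled to library size with TMM factors), the median coefficient of variation was 6.83% in control and 6.09% in siHnrnpd.

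**Figure D2:**
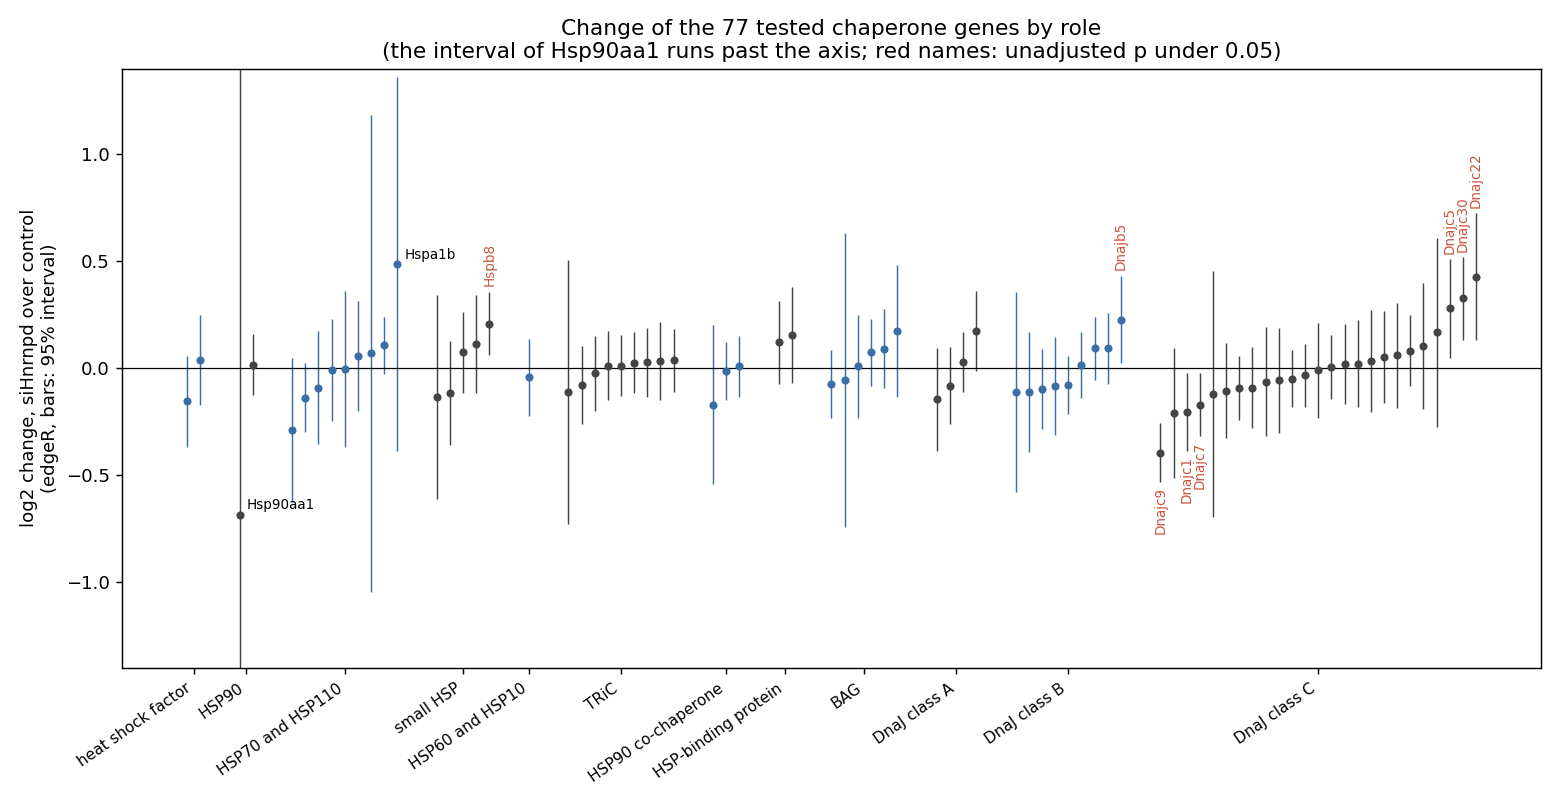
Log2 change, siHnrnpd over control, for the 77 tested members by role (neighbouring roles in blue and grey), with 95% intervals from edgeR; the axis ends at 1.4 in either direction. Most points lie within 0.2 of 0, and Dnajc9, at -0.39, is the lowest of the DnaJ class C genes.

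Dnajc9 had the lowest p of the group. It encodes a DnaJ protein that binds histones H3 and H4 and recruits HSP70 to them during their deposition. Its level was 188, 184 and 182 CPM in controls 1 to 3 and 137, 145 and 138 CPM in siHnrnpd 1 to 3. All 3 siHnrnpd libraries therefore lay below all 3 controls, with little spread inside either group. The means were 184 ± 2.92 and 140.4 ± 4.43 CPM (SD, n = 3 each), so 76.1% of the control level was left. The log2 change was -0.39 (SE 0.061), with a 95% interval of -0.53 to -0.26, and its edgeR adjusted p of 0.0615 missed the threshold. It was the one member under an adjusted p of 0.1 (1.30% of the members tested, background 0.293%), and 15 of the 12268 genes had a smaller p. DESeq2 called Dnajc9 lower (adjusted p = 2.33e-05), and so did edgeR without the filter on low counts (adjusted p = 0.00774). These settings called 1 member each, where the background is 0.866% and 0.785% of all genes. The other settings did not call Dnajc9. Its adjusted p was 0.227 in edgeR with replicate number as a block, and 0.0673 to 0.135 in limma on FPKM. Leaving out 1 library gave log2 changes of -0.42 to -0.38 with edgeR adjusted p of 0.0704 to 0.432, and the value without siHnrnpd 3 was -0.39. Fam149b1, whose RefSeq locus overlaps that of Dnajc9, had a log2 difference of 0.013 (edgeR adjusted p = 0.973).

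The other class C members with an unadjusted p under 0.05 lay on either side of 0, and none passed over all genes. Dnajc7, which binds HSP70 and HSP90 through TPR repeats, had 134, 125 and 125 CPM in controls 1 to 3 and 109, 118 and 115 CPM in siHnrnpd 1 to 3. The siHnrnpd libraries lay below the controls, and the log2 difference was -0.17 (edgeR adjusted p = 0.397). Its RefSeq locus overlaps Nkiras2, which had a log2 difference of 0.24 (edgeR adjusted p = 0.306), and reads of overlapping genes cannot be told apart without a stated strand setting. In RefSeq 44 of the members overlap another gene, 22 of them a protein-coding one.

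Dnajc1, a membrane DnaJ protein of the endoplasmic reticulum, had 34.2, 33.2 and 30.2 CPM in controls 1 to 3 and 27.7, 30.2 and 26.7 CPM in siHnrnpd 1 to 3. The groups touched, since siHnrnpd 2 lay just above control 3 (log2 difference -0.20, edgeR adjusted p = 0.407). Without siHnrnpd 3 the value for Dnajc1 was -0.18, with an unadjusted edgeR p of 0.0955. Dnajc30, a mitochondrial DnaJ protein, had 17.8, 18.6 and 18.2 CPM in controls 1 to 3 and 24.6, 21.2 and 22.6 CPM in siHnrnpd 1 to 3. Every siHnrnpd library lay above every control, with a log2 difference of 0.33 (SE 0.086, edgeR adjusted p = 0.248).

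Dnajc22 had 7.03, 8.01 and 8.72 CPM in controls 1 to 3 and 11.5, 11.3 and 9.22 CPM in siHnrnpd 1 to 3, a log2 difference of 0.43 (edgeR adjusted p = 0.322). Dnajc5, the cysteine string protein of secretory vesicles, had 13.2, 12.8 and 11.5 CPM in controls 1 to 3 and 16.5, 14.8 and 14.3 CPM in siHnrnpd 1 to 3. The groups lay apart in both genes, and the log2 difference of Dnajc5 was 0.28 (edgeR adjusted p = 0.369). Dnajc12 had the next lowest log2 difference of the class after Dnajc9, -0.21, with overlapping groups (edgeR adjusted p = 0.594). Over the 25 tested class C members the median was -0.0093, with 12 above 0, and Dnajc5b and Dnajc6 were under the filter, with 0 to 9 counts in any library.

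**Figure D3:**
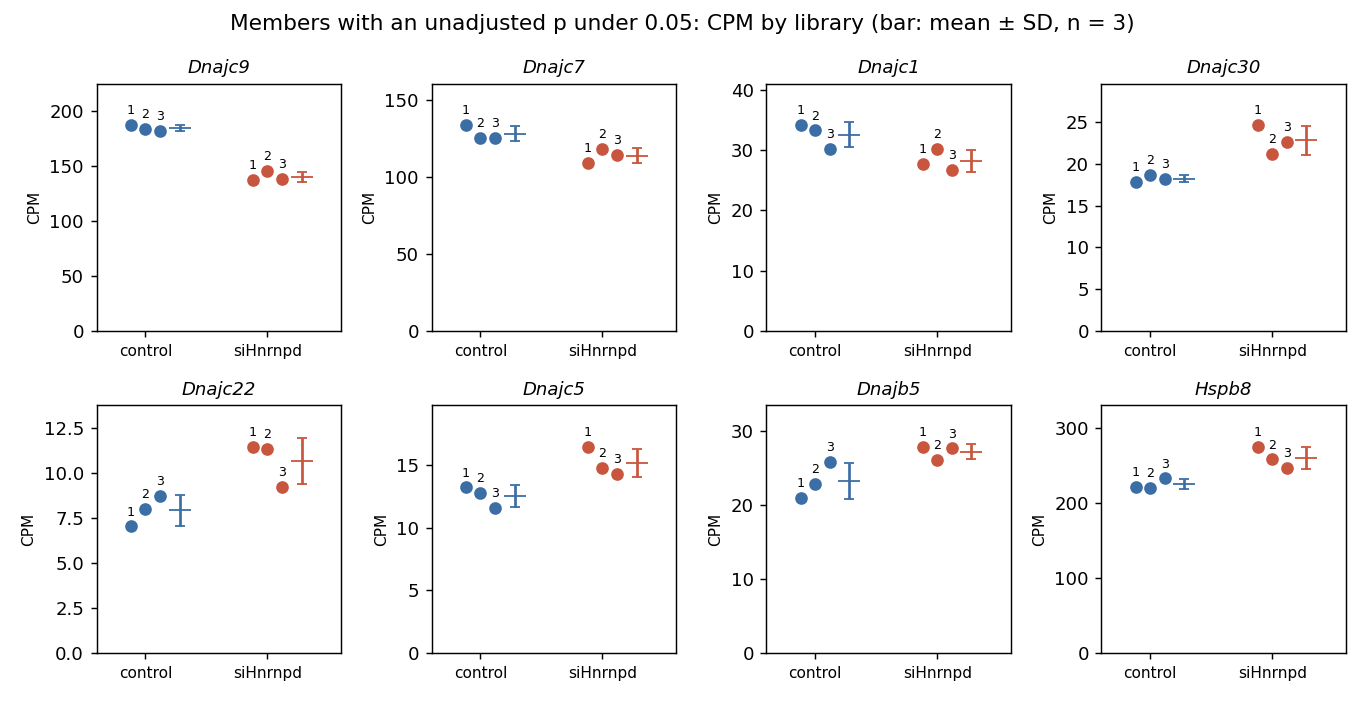
CPM in each of the 6 libraries (points, numbered by replicate) for the 8 members with an unadjusted p under 0.05, with the mean and SD of each group (n = 3) beside them; axes start at 0. Dnajc9 shows the tightest groups, at 182 to 188 CPM in control and 137 to 145 CPM in siHnrnpd, and the groups touch in Dnajc1.

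Classes A and B hold the DnaJ proteins closest to the bacterial DnaJ, with a glycine and phenylalanine rich stretch after the J domain. Dnajb5 had 21.0, 22.9 and 25.9 CPM in controls 1 to 3 and 27.9, 26.1 and 27.7 CPM in siHnrnpd 1 to 3. The groups lay narrowly apart, with a log2 difference of 0.23 (edgeR adjusted p = 0.414). Without siHnrnpd 3 the value for Dnajb5 was 0.20, with an unadjusted edgeR p of 0.0861. Dnajb1, the heat-inducible HSP40 that works with HSP70, had 102, 104 and 103 CPM in controls 1 to 3 and 101, 94.7 and 97.8 CPM in siHnrnpd 1 to 3. Although the groups did not overlap, the log2 difference was -0.077 with a 95% interval of -0.21 to 0.059 (edgeR adjusted p = 0.677). Dnaja4 had a log2 difference of 0.17 (edgeR adjusted p = 0.471), with the siHnrnpd libraries at 22.4 to 23.4 CPM above the controls at 18.8 to 21.4 CPM. The medians were -0.026 over the 4 tested class A members and -0.077 over the 9 tested class B members, and Dnajb7 was under the filter with 0 or 1 count in each library.

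Heat shock factors are the transcription factors of the response. Hsf1, its main activator, had 58.1, 61.7 and 71.5 CPM in controls 1 to 3 and 69.7, 59.7 and 67.4 CPM in siHnrnpd 1 to 3. The groups overlapped throughout, with a log2 difference of 0.039 (95% interval -0.17 to 0.25, edgeR adjusted p = 0.908). Hsf2, a related factor active in development, had a log2 difference of -0.15 (95% interval -0.37 to 0.056, edgeR adjusted p = 0.572). Hsf1 and Hsf2 had mean levels of 22.9 and 9.82 FPKM, while Hsf4, known from the lens, and Hsf5 were under the filter with 0 to 8 counts per library.

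Targets of the response were read from a list of classical heat-inducible genes. Of 17 such genes 15 had a row and 14 were tested, with no row under the symbols Hspa1a and Hspe1. They had a median log2 difference of -0.0074 and ran from -0.68 in the row named Hsp90aa1 to 0.49 in Hspa1b. Hsp90aa1 and Hspa8 were read here from the rows carrying those names. Summed with the rows described as the same proteins, treated below, they gave -0.059 and -0.075. The median was not recomputed with these sums. Of the 14, 6 lay above 0 and 8 below, and Hspb8 was the 1 gene with an unadjusted p under 0.05, higher with the siRNA, while 0 were lower. The 17 tested members with 2-unit heat shock element letters had a median of 0.0094, and the 47 tested members whose promoter lacked them had 0.016. Those 47 include Hspa1b, Hsp90ab1 and Ahsa1 of the heat-inducible list, while Hsp90aa1 and Dnajb4 matched no promoter. The 3 with 3-unit letters, whose promoters are printed above, had -0.14 in Hsph1, -0.043 in Hspd1 and -0.075 in Hspa8, where Hspa8 is read from the row on chromosome 8, AABR07070032.1, the chromosome of the printed promoter. The row carrying the name Hspa8 gave -0.0022. The median with 2-unit letters was 0.0094 with either row, and it could not move, since both values lie below it.

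The HSP90 genes encode the chaperone that matures kinases and steroid receptors. Hsp90ab1 had 1392, 1426 and 1397 CPM in controls 1 to 3 and 1455, 1413 and 1397 CPM in siHnrnpd 1 to 3. These values differed little from library to library (log2 difference 0.017, 95% interval -0.12 to 0.16, edgeR adjusted p = 0.946). The row of Hsp90aa1, the inducible cytosolic HSP90 alpha on chromosome 6, behaved differently. It had 36, 1161 and 24 counts in controls 1 to 3 and 3, 802 and 2 counts in siHnrnpd 1 to 3. The 2 libraries numbered 2, one in each group, were therefore far above the other 4. Of all 18718 genes, 1 gene, Hsp90aa1, had both libraries of a replicate number at 5 CPM or more and over 4 times above all others. Its log2 difference of -0.68 (SE 1.56, edgeR adjusted p = 0.903) rested on those libraries: it was 3.11 without control 2, -7.39 without siHnrnpd 2 and -0.11 without siHnrnpd 3.

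Another row of chromosome 6, LOC103692716, is described in the table as heat shock protein HSP 90-alpha. It held 7713, 7896 and 7856 counts in controls 1 to 3 and 7483, 9000 and 7667 counts in siHnrnpd 1 to 3. The row named Hsp90aa1 thus held 0.0261% to 12.8% of the summed counts of both. The sum amounted to 267, 290.4 and 218 CPM in controls 1 to 3 and 214, 296 and 235 CPM in siHnrnpd 1 to 3. The numbers 2 were highest in each group of the sum. In LOC103692716 alone, control 1 was the highest control, at 266 CPM against 253 CPM in control 2. There siHnrnpd 2 was highest in its group, at 272 CPM. The log2 difference of the sum was -0.059 (SE 0.13, edgeR adjusted p = 0.903). Why the named row differs between libraries was not tested, and its own values should not be read as the level of HSP90 alpha.

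**Figure D4:**
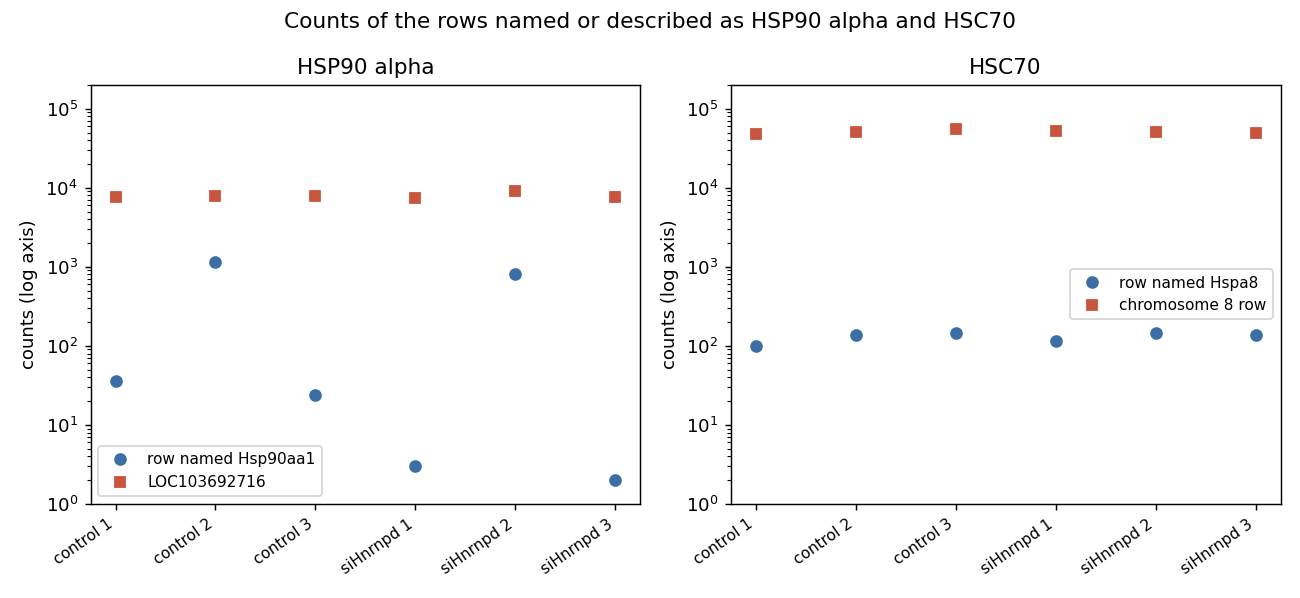
Counts per library (log axis) of the rows named Hsp90aa1 and Hspa8 (blue circles) and of the rows described as HSP 90-alpha, LOC103692716, and heat shock cognate 71 kDa protein on chromosome 8 (red squares). The Hsp90aa1 row reaches 1161 and 802 counts in control 2 and siHnrnpd 2 and stays at 36 or fewer elsewhere, while the other rows are level.

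The HSP70 genes showed a similar division of names. The row named Hspa8 lies on chromosome 5 and held 101 to 146 counts, a mean of 1.62 FPKM. The RefSeq table places Hspa8 on chromosome 8, where an unnamed row, AABR07070032.1, described as heat shock cognate 71 kDa protein, had a mean of 688 FPKM. Set among the members, that level would be second to Tcp1. AABR07070032.1 had 1629, 1639 and 1527 CPM in controls 1 to 3 and 1491, 1546 and 1513 CPM in siHnrnpd 1 to 3. The groups overlapped, with a log2 difference of -0.075 (95% interval -0.22 to 0.074, edgeR adjusted p = 0.717), and the row named Hspa8 gave -0.0022 (edgeR adjusted p = 0.998).

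Hspa1b, the strongly heat-inducible HSP70, was close to silent, with 13, 9 and 14 counts in controls 1 to 3 and 21, 23 and 9 counts in siHnrnpd 1 to 3. The log2 difference was 0.49 with a 95% interval of -0.39 to 1.36 (edgeR adjusted p = 0.682). The value for Hspa1b depended on single libraries: it was 0.24 without siHnrnpd 2 and 0.77 without siHnrnpd 3. That last value had an edgeR adjusted p of 0.476, and 0.0488 before adjustment. RefSeq gives Hspa1b as a synonym of Hspa1a, a near copy, so its reads may have been divided or dropped. Hsph1 had 156, 144 and 139 CPM in controls 1 to 3 and 129, 141 and 128 CPM in siHnrnpd 1 to 3, a log2 difference of -0.14 with overlapping groups (edgeR adjusted p = 0.510).

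Hspa14, a ribosome-associated HSP70, had 87.4 to 89.9 CPM in control and 94.3 to 96.0 CPM in siHnrnpd, so the groups lay apart (log2 difference 0.11, edgeR adjusted p = 0.540). Hspa4, an HSP110 protein, and Hspa9, the mitochondrial HSP70 mortalin, had log2 differences of -0.0062 and 0.057. Hspa2, best known from male germ cells, was low at 0.895 FPKM, and its siHnrnpd libraries lay below the controls (log2 difference -0.29, edgeR adjusted p = 0.508). Hspa4l, Hspa12a and Hspa12b were under the filter, with 0 to 12 counts per library.

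Small heat shock proteins hold unfolded clients without ATP. Hspb8, which works with Bag3 in clearing aggregates through autophagy, had 222, 221 and 233 CPM in controls 1 to 3 and 275, 258 and 247 CPM in siHnrnpd 1 to 3. All siHnrnpd libraries lay above the controls (log2 difference 0.21, SE 0.066, edgeR adjusted p = 0.323). Bag3 itself had a log2 difference of 0.074 with overlapping groups (edgeR adjusted p = 0.740). Hspb1 had 308, 355 and 394 CPM in controls 1 to 3 and 424, 353 and 367 CPM in siHnrnpd 1 to 3. Its spread inside a group was larger than the difference between the groups (log2 difference 0.11, edgeR adjusted p = 0.726). Hspb6 had a log2 difference of 0.074, Hspb7 of -0.13, and Hspb11, an intraflagellar transport protein despite its name, of -0.12. Hspb2 and Hspb9 were under the filter with 1 to 6 counts, and Cryab, a small heat shock protein outside the group, had a log2 difference of 0.090 (edgeR adjusted p = 0.901).

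The chaperonin genes had nearly equal levels in both groups. Among the TRiC subunits log2 differences ran from -0.11 in Cct6b to 0.037 in Cct4, with a median of 0.013, 6 of 9 above 0 and 0 at an unadjusted p under 0.05. Tcp1 had 2160, 2069 and 1872 CPM in controls 1 to 3 and 2016, 2074 and 1914 CPM in siHnrnpd 1 to 3. The groups overlapped (log2 difference -0.023, 95% interval -0.20 to 0.15, edgeR adjusted p = 0.937).

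The FPKM levels of the subunits were unequal. Cct3, Cct4 and Cct7 had means of 200, 184 and 183 FPKM, and log2 differences of 0.013, 0.037 and 0.026. Tcp1 was 2.74-fold above Cct5 and 7.98-fold above Cct6a, the lowest of the other widely expressed subunits. In RefSeq the Tcp1 locus overlaps Acat2l1 and snoRNA genes, whose part in this level was not tested. Cct6b, the testis form of the zeta subunit, had 0.312 FPKM. Hspd1 had 423, 379 and 362 CPM in controls 1 to 3 and 359, 405 and 365 CPM in siHnrnpd 1 to 3, with a log2 difference of -0.043 (edgeR adjusted p = 0.877). Its partner Hspe1, whose locus it overlaps in RefSeq, had no row under that symbol.

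HSP90 co-chaperones and the BAG proteins complete the group. Ptges3, the p23 co-chaperone that holds HSP90 in its closed form, had 415, 339 and 267 CPM in controls 1 to 3 and 259, 368 and 281 CPM in siHnrnpd 1 to 3. It was among the most variable abundant members, with a coefficient of variation of 21.7% in control, and its log2 difference of -0.17 had a 95% interval of -0.54 to 0.20 (edgeR adjusted p = 0.749). With 1 library left out, Ptges3 ran from -0.33 without siHnrnpd 2 to -0.014 without control 1. Stip1, the adaptor between HSP70 and HSP90, and Ahsa1, which stimulates the HSP90 ATPase, differed little, with log2 differences of 0.0094 and -0.013. Of the BAG proteins, which release clients from HSP70, 4 of 6 had a log2 difference above 0, with a median of 0.042 and a range of -0.073 in Bag1 to 0.17 in Bag4. The HSP-binding proteins Hspbp1, a nucleotide exchange factor, and Hspbap1 had 0.16 and 0.12. Hspbp1 had 0.038 without control 1 and 0.25 without control 3.

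Sorted by place in the cell, 8 mitochondrial members had a median of 0.017 and 7 members of the endoplasmic reticulum had 0.016, with 5 and 4 above 0. The endoplasmic reticulum chaperones outside the group gave a different pattern between libraries. All 7 of them had a log2 difference above 0, with a median of 0.11 and 0 at an unadjusted p under 0.05. Hspa5, the HSP70 known as BiP, had 1056, 1014 and 890 CPM in controls 1 to 3 and 1479, 1371 and 818 CPM in siHnrnpd 1 to 3. Thus siHnrnpd 1 and 2 were above every control and siHnrnpd 3 was below (log2 difference 0.31, edgeR adjusted p = 0.564). Without siHnrnpd 3 the value for Hspa5 was 0.52 (edgeR adjusted p = 0.0740). The median over the 7 genes was then 0.24, with 3 higher and 0 lower before adjustment and 0 called by edgeR. Of the 12444 genes in that fit, 613 were higher and 681 lower before adjustment, and 14 were called. That fit leaves out the library that lay below every control in Hspa5. Dnajb11, the DnaJ partner of BiP, had the same order in a narrower range, with 202 to 204 CPM in control and 219, 207 and 191 CPM in siHnrnpd 1 to 3. Dnajc3, which also serves the endoplasmic reticulum, had 52.8 to 58.4 CPM in control and 61.8, 60.9 and 49.1 CPM in siHnrnpd 1 to 3. Its log2 difference was 0.054, and 0.14 without siHnrnpd 3 (edgeR adjusted p = 0.873 and 0.578). Among the 7 members of the endoplasmic reticulum, Hspa13, Dnajc1, Dnajc10, Dnajc16 and Dnajc25 did not have this order. Outside the group, Dnajb9, Sdf2l1 and Sil1 also lacked it. The link between this order and the low interferon-stimulated genes of siHnrnpd 3 was not tested.

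Other chaperone genes were read for comparison. Of 23 further HSP90 and HSP70 co-chaperones, 12 had a log2 difference above 0, the median was 0.0049, and at p under 0.05 before adjustment 1 was higher and 0 were lower. That gene was Tomm34, a TPR co-chaperone of mitochondrial import, with 61.4, 65.3 and 66.4 CPM in controls 1 to 3 and 81.4, 72.3 and 72.7 CPM in siHnrnpd 1 to 3 (log2 difference 0.23, edgeR adjusted p = 0.323). Prefoldin and its partners, which hand clients to TRiC, had a median of 0.060 over 8 genes, 6 above 0. The prefoldin subunit Vbp1 was the 1 among them at an unadjusted p under 0.05 (log2 difference 0.26, edgeR adjusted p = 0.341). The other mitochondrial chaperones and proteases had a median of -0.025 over 7 genes. Of these the protease Lonp1 was the 1 gene at an unadjusted p under 0.05 (log2 difference 0.23, edgeR adjusted p = 0.423). By edgeR 0 genes of these 3 lists were called. Tomm34, Vbp1 and Lonp1 are named here because their values were seen.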

How the data were processed

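Total RNA of 6 HEI-OC1 libraries, 3 per group, was read as paired ends. Per the submitters' processing notes, reads were aligned with TopHat2 and the build was mRatBN7.2. For the counter, its strand setting and the annotation, the sources used here say nothing. The first table the authors deposited gives raw whole read counts for each gene, and the second holds the authors' FPKM, with 0 columns left without a sample.

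The test was the quasi-likelihood test of edgeR 4.0.16 (R 4.3.3) after TMM scaling and filterByExpr, with no term besides group and p-values adjusted by Benjamini-Hochberg over 12268 genes. SEs and 95% intervals come from that fit. Alternatives were DESeq2 1.42.0, RLE and upper-quartile scaling, no filter, a floor of 50 counts in 3 libraries, a block for replicate number, each library left out, and limma 3.58.1 on log2-transformed FPKM with a pseudocount of 1 or 0.1 and a floor of 1 FPKM or none. Changes on the FPKM scale are understated for low genes. The tests were checked on simulated counts. All 15 pairs of libraries differed beyond sampling noise. Members, lists and tests were chosen with earlier results of these data known. The genes named were those with an unadjusted p under 0.05, the 6 highest and 6 lowest log2 changes at 5 CPM or more, the 10 highest by FPKM and a set of heat-inducible genes; others are named to complete a family. Summing the rows of near copies was added after seeing the data.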

Additional observations from a re-analysis of the deposited data

How the results depend on the processing

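The count of called members was 0 by edgeR and moved to 1 with DESeq2 and to 1 with no filter on low counts, Dnajc9 in each case; the cause was not tested. It stayed 0 under the other settings run, limma on FPKM included. At an unadjusted p under 0.05, leaving out 1 library gave 3 to 5 members higher and 1 to 5 lower, with the lowest counts, 3 and 1, without siHnrnpd 1. Without control 2 it was 1 lower, without control 3 it was 5 lower, and without siHnrnpd 3 it was 5 higher and 2 lower. The counts over all genes tested moved as well. Without siHnrnpd 1 they were 488 higher and 532 lower of 12389, and without control 2 they were 365 and 359 of 12449. Without control 3 they were 1096 higher and 823 lower of 12393, and without siHnrnpd 3 they were 613 and 681 of 12444. The median over the members stayed between -0.023 and 0.025. With the replicate number as a block, 0 members were called, and before adjustment 5 were higher and 3 lower, with a median of 0.0059. Over all 12268 genes that fit called 0, with 515 higher and 547 lower before adjustment. Whether the numbers pair samples was not settled, since deviations within groups of 3 libraries cannot exclude pairing. The correlations of deviations between same-numbered libraries were -0.35, 0.17 and 0.10. Control 2 and siHnrnpd 3 correlated best with their own number, and the other libraries did not. The row named Hsp90aa1 was high in both libraries numbered 2. Depth limits the members at a few counts per library, such as Hspa1b and those under the filter. The median SE of a member's log2 change was 0.086.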
